A study of Homo sapiens with 3 samples.

Results

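The transcripts followed here were those of the glucocorticoid receptor gene NR3C1 and of 9 genes known as its targets, namely FKBP5, TSC22D3, PER1, KLF9, SGK1, ZBTB16, ERRFI1, CEBPD and PIK3IP1. They were found by gene symbol among the 56632 Ensembl gene IDs of each deposited table, and all 10 were matched. The samples were 3 RNA-seq libraries of MCF10Ca1h cells, an established line of human breast cancer that forms tumours and belongs to the MCF10 series of breast epithelial lines. The NT library came from cells with no treatment. The GSK484 library came from cells given GSK484, an inhibitor of the protein-citrullinating enzyme PADI4, and the CON library from cells given a control compound, both for 72 h. The control compound is GSK107 by the labels and GSK106 by the name of its deposited table, so no code is used for it here. All cells grew in DMEM/F12 medium with horse serum, and the labels name no added glucocorticoid, no dose and no time in culture for NT. Each group was 1 library of 1 cell line, so no difference below could be set against the spread between replicates and none has a p-value.

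The glucocorticoid receptor is a nuclear receptor that waits in the cytoplasm in a complex with HSP90 and its co-chaperones. Cortisol binding releases it to the nucleus, where it binds DNA at glucocorticoid response elements and raises or lowers the transcription of nearby genes. In mammary epithelial cells the receptor is known for supporting survival and differentiation, and FKBP5, TSC22D3, PER1 and SGK1 are widely used as readouts of its activity.

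Levels are given as the expected count, which is the estimated number of reads of a gene, as CPM, the count scaled to library size, and as the deposited TPM, a transcript abundance that also accounts for transcript length. CPM values were scaled between libraries with TMM factors, which balance the bulk of expressed genes. Total expected counts were 70555229 for NT, 92980847 for CON and 77220120 for GSK484. All 10 epithelial markers checked were present at 1 CPM or more, and together they reached 15540 CPM for NT, 16134 for CON and 16868 for GSK484. Of 12 markers of blood, endothelial, fibroblast and fat cells, 3 reached 1 CPM in at least 1 library, and PTPRC, CD3E, MPO, COL3A1 and ADIPOQ had a count of 0 in all 3. The 12 summed to 11.2 CPM for NT, 12.2 for CON and 12.7 for GSK484. The counts of all 10 members were whole numbers within 0.005, so no reads of theirs had been divided with another gene. Genes annotated as overlapping a member reached at most 0.65 CPM. The strand setting of the counting is not given in the sources used here.

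Every interval below is a 95% interval for counting error only, exact Poisson for a level and exact conditional binomial for a log2 fold. In place of a test, a rule of size called a gene higher or lower at a fold of 2 or more, with a counting interval clear of 0 and with 1 CPM or more in the larger library. For GSK484 against CON it called 26 of 13199 genes (0.197%) higher and 36 (0.273%) lower. With library totals in place of TMM the split was 37 higher to 29 lower, and with the deposited TPM it was 54 to 30. Against NT, 36 of 13209 genes (0.273%) were higher and 37 (0.28%) lower in GSK484, and 44 of 13221 (0.333%) were higher and 178 (1.35%) lower in CON. With the dependence on GC content and length removed the calls for CON against NT were 21 higher and 50 lower.

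**Figure D1:**
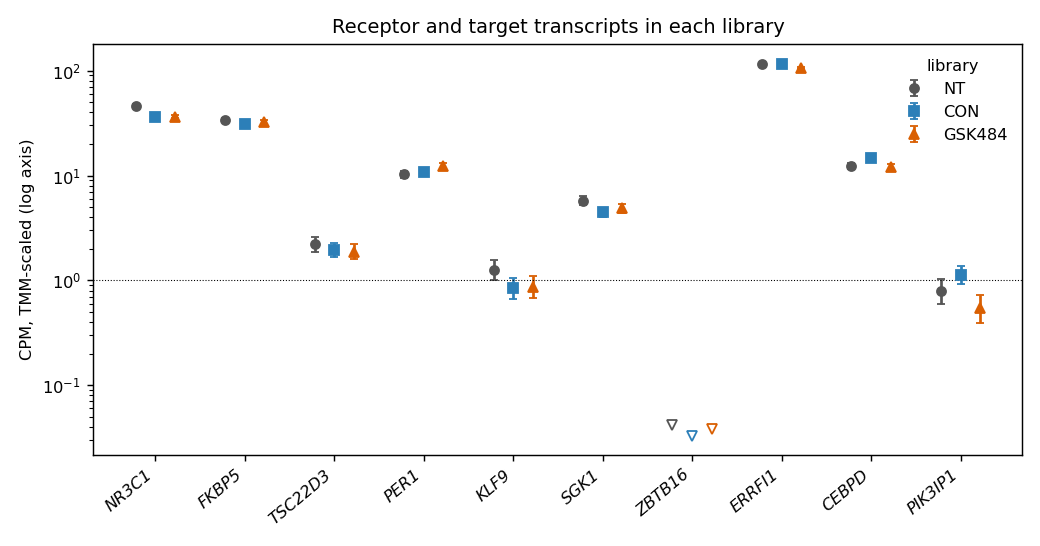
Level of each of the 10 transcripts in the 3 libraries, as TMM-scaled CPM on a log axis. Points are single libraries, bars are exact Poisson 95% intervals, open triangles mark the level of 3 counts for a gene with a count of 0, and the dotted line is 1 CPM. Of the detected transcripts, PIK3IP1 was separated most between libraries, and ZBTB16 was not detected.

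Per unit of length, ERRFI1 was the most abundant of the 10, with a mean deposited TPM of 45.9 over the 3 libraries, above 79.2% of the 13312 genes that reached 1 CPM in any library. FKBP5 (10.2 TPM), NR3C1 (7.77) and CEBPD (7.46) followed, above 47.5%, 41.6% and 40.7% of those genes. PER1 (4.09 TPM), SGK1 (2.66) and TSC22D3 (1.60) were lower, and PIK3IP1 (0.41) and KLF9 (0.23) were lowest among those detected. NR3C1 and CEBPD overlapped in TPM across libraries and changed places in CON, where CEBPD was at 7.99 TPM and NR3C1 at 6.75. PIK3IP1 and KLF9 met at 0.30 TPM, the value of PIK3IP1 in GSK484 and of KLF9 in NT. All other neighbours in this order had ranges that did not overlap.

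NR3C1 (ENSG00000113580) encodes the receptor itself. Its expected count was 3317 for NT, 3293 for CON and 2837 for GSK484, which is 46.5, 36.1 and 36.4 CPM, and its deposited TPM was 9.12, 6.75 and 7.45. NT was the high library, and the counting intervals of CON (34.9 to 37.4 CPM) and GSK484 (35.1 to 37.8 CPM) overlapped each other and not that of NT (45.0 to 48.1 CPM). GSK484 against CON gave a log2 fold of 0.01 (interval -0.06 to 0.09). Both compound-treated libraries were lower than NT, with a log2 fold of -0.35 (interval -0.43 to -0.28) in GSK484 and of -0.37 (-0.44 to -0.30) in CON. These differences of 1.28-fold and 1.29-fold are short of the rule. The longest NR3C1 transcript is 39.1% GC. Once the dependence of log2 fold on GC content and length had been fitted as a smooth trend and subtracted, NR3C1 was at -0.16 in GSK484 against NT, at 0.03 in CON against NT and at -0.19 in GSK484 against CON. The place of NR3C1 in CON relative to NT and to GSK484 therefore depended on that correction, while GSK484 lay below NT with and without it.

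FKBP5 (ENSG00000096060) encodes an HSP90 co-chaperone that lowers the hormone affinity of the receptor and is induced by it in a negative feedback loop. Its count was 2412 for NT, 2798 for CON and 2515 for GSK484, or 33.8, 30.7 and 32.3 CPM. The interval of GSK484 (31.0 to 33.6 CPM) overlapped those of both other libraries. FKBP5 was within counting error in GSK484 against CON (log2 fold 0.07, interval -0.00 to 0.15) and against NT (-0.07, interval -0.15 to 0.01). CON was 1.10-fold lower than NT (log2 fold -0.14, interval -0.22 to -0.06), a direction that turned to 0.10 with the GC and length trend removed.

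TSC22D3 (ENSG00000157514) encodes GILZ, a leucine zipper protein that carries part of the anti-inflammatory action of glucocorticoids. It had 157 reads for NT, 179 for CON and 146 for GSK484, or 2.20, 1.96 and 1.87 CPM. All 3 counting intervals overlapped, from 1.87 to 2.58 CPM in NT, from 1.68 to 2.27 in CON and from 1.58 to 2.20 in GSK484. GSK484 against CON gave -0.07 (interval -0.39 to 0.26), and a difference within that interval was not detectable at this depth. On the deposited TPM scale the order was different, with 1.83 for NT, 1.33 for CON and 1.63 for GSK484.

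PER1 (ENSG00000179094), a repressor of the circadian clock that glucocorticoids induce acutely, was the only target higher in GSK484 than in both other libraries beyond counting error. It had 730 reads for NT, 991 for CON and 959 for GSK484, or 10.2, 10.9 and 12.3 CPM. The interval of GSK484 (11.5 to 13.1 CPM) just met that of CON (10.2 to 11.6 CPM) and lay above that of NT (9.51 to 11.0 CPM). The log2 fold of GSK484 was 0.18 against CON (interval 0.05 to 0.31) and 0.27 against NT (0.13 to 0.41), or 1.13-fold and 1.20-fold, both short of the rule. With the trend removed the values were 0.14 and 0.18. In deposited TPM the difference from NT was smaller, at 4.35 against 4.17, and CON was lowest at 3.76.

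The promoter window of PER1 is shown because PER1 was the target above both other libraries in GSK484. It comes from RefSeq on GRCh38.p14, chr17:8152355-8152654, minus strand, from 250 bases before the start of transcription to 50 after, written along the transcript. Capitals mark the E-box CACGTG, the element bound by the clock factors CLOCK and BMAL1, and CCAAT or its reverse complement ATTGG.
PER1: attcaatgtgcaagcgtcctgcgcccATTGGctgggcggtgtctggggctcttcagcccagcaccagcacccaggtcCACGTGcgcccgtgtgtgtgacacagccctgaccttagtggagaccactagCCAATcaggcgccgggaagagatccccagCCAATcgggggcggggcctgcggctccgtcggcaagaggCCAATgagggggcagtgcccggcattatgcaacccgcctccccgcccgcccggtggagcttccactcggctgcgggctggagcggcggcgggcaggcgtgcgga
The E-box begins at base 78 of the window, counted from 1 at its 5′ end, and the CCAAT matches at bases 27, 129, 158 and 197. CACGTG occurs in 7.26% and CCAAT in 34.6% of the 35116 RefSeq windows of the same length, on either strand.

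KLF9 (ENSG00000119138), a zinc finger repressor induced by both glucocorticoids and thyroid hormone, was a low transcript with 90 reads for NT, 77 for CON and 68 for GSK484. This is 1.26 CPM (interval 1.02 to 1.55) in NT, 0.84 (0.67 to 1.05) in CON and 0.87 (0.68 to 1.11) in GSK484, with NT highest and its interval touching both others. Against NT, the log2 fold was -0.53 in GSK484 (interval -1.01 to -0.06) and -0.58 in CON (-1.04 to -0.13), or 1.44-fold and 1.49-fold lower. GSK484 and CON were both below 1 CPM, so KLF9 was not compared between them by the rule (log2 fold 0.05, interval -0.44 to 0.54). KLF9 and CEBPD each have 1 transcript in the deposited tables, so their effective lengths differed by no more than 1.01-fold between libraries. KLF9 was lower in GSK484 and CON than in NT under all 5 other settings tried, with -0.43 in each comparison once the GC and length trend was removed.

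SGK1 (ENSG00000118515) encodes a serum- and glucocorticoid-induced kinase of the AGC family that promotes epithelial sodium transport and cell survival. Its count was 411 for NT, 405 for CON and 379 for GSK484, or 5.77, 4.44 and 4.87 CPM. NT was the high library, its interval (5.22 to 6.35 CPM) was clear of that of CON (4.02 to 4.89 CPM), and that of GSK484 (4.39 to 5.38 CPM) overlapped both. CON was 1.30-fold lower than NT (log2 fold -0.38, interval -0.58 to -0.18) and GSK484 1.18-fold lower (-0.24, interval -0.45 to -0.04), while GSK484 against CON was within counting error (0.13, interval -0.07 to 0.34). Deposited TPM values spread wider, at 3.48 for NT, 2.02 for CON and 2.49 for GSK484, a range of 1.72-fold where CPM gave 1.30-fold.

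The wider TPM spread of SGK1 went with its effective length, which the tables give as the abundance-weighted mean over its 30 transcripts. It was 1948 bases for NT, 2376 for CON and 2287 for GSK484, a range of 1.22-fold and the widest among the 10 genes. The transcripts themselves run from 250 to 5474 bases, and values of single transcripts were not analysed here. RefSeq gives SGK1 3 separate starts, shown here because the length shift is a shift in the estimated mix of transcripts. All are on GRCh38.p14, minus strand, written along the transcript, with 250 bases before and 50 after the start. Capitals mark TATAAA or its reverse complement TTTATA, and AGAACA, an arm of the palindromic glucocorticoid response element.
SGK1, chr6:134318063-134318362: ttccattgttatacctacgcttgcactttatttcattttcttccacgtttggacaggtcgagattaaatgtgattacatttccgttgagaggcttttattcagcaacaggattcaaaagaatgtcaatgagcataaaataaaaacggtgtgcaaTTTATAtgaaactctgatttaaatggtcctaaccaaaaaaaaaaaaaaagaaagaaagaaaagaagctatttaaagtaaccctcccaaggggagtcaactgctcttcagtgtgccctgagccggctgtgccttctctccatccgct
SGK1, chr6:134177812-134178111: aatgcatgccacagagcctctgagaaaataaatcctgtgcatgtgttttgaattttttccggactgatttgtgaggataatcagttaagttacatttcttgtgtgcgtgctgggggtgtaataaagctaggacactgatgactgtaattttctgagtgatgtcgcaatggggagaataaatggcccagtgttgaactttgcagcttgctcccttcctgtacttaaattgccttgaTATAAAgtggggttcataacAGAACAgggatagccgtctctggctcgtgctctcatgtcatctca
SGK1, chr6:134174817-134175116: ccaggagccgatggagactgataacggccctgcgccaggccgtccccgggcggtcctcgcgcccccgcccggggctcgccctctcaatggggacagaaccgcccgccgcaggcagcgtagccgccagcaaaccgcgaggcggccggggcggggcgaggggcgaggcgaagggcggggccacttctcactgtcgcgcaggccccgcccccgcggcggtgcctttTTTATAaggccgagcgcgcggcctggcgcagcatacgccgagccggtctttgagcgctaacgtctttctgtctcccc
Each window held 1 TATA box match, a motif found in 11.5% of all RefSeq windows, and the middle one also AGAACA at base 256, found in 14.8%. The windows differed in base composition, with 38.0%, 43.0% and 73.3% GC and 7, 5 and 41 CpG pairs.

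**Figure D2:**
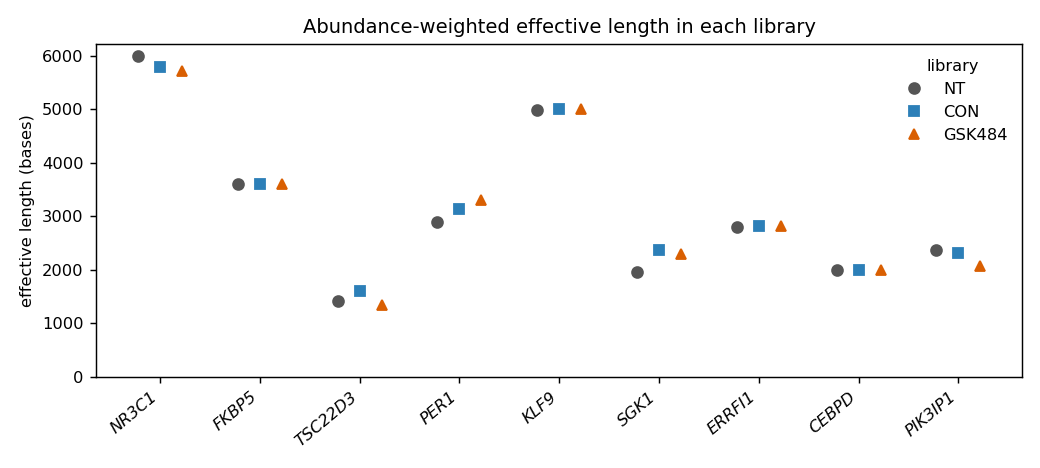
Effective length in bases of the 9 transcripts that reached 1 CPM, in the 3 libraries, as deposited. SGK1, TSC22D3, PER1 and PIK3IP1 shifted between libraries by 1.14-fold to 1.22-fold, whereas FKBP5, KLF9, ERRFI1 and CEBPD stayed within 1.01-fold.

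Other targets with several transcripts shifted in the same measure. TSC22D3 had effective lengths of 1415 bases for NT, 1598 for CON and 1346 for GSK484, a range of 1.19-fold. PER1 had 2887, 3128 and 3313 bases, a range of 1.15-fold, and PIK3IP1 2375, 2314 and 2074 bases, a range of 1.14-fold. SGK1 and PER1 were shortest in NT, while TSC22D3 and PIK3IP1 were shortest in GSK484. These lengths carry no error estimate in the tables, and TSC22D3 and PIK3IP1 rest on fewer than 200 reads per library.

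ZBTB16 (ENSG00000109906), a zinc finger transcription factor gene that is strongly glucocorticoid-induced in many cells, had a count of 0 in all 3 libraries. A count of 0 allows up to 3 counts, or 0.042 CPM for NT, 0.033 for CON and 0.038 for GSK484, and no fold is given.

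ERRFI1 (ENSG00000116285) encodes MIG6, a feedback inhibitor of the EGF receptor that glucocorticoids also induce in mammary cells. It had 8321 reads for NT, 10583 for CON and 8295 for GSK484, or 117, 116 and 106 CPM. GSK484 was the low library, and its interval (104 to 109 CPM) was clear of those of NT (114 to 119 CPM) and CON (114 to 118 CPM). The differences were small, a log2 fold of -0.12 against CON (interval -0.17 to -0.08) and of -0.13 against NT (-0.18 to -0.09), or 1.09-fold and 1.10-fold lower. In deposited TPM, GSK484 and CON were at 44.4 and 44.6, with NT at 48.9. With the trend removed ERRFI1 was at -0.18 against CON and -0.04 against NT.

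CEBPD (ENSG00000221869), a bZIP transcription factor gene of acute-phase and mammary involution responses, was high in CON. It had 881 reads for NT, 1345 for CON and 944 for GSK484, or 12.4, 14.7 and 12.1 CPM, and the interval of CON (14.0 to 15.6 CPM) was clear of those of NT (11.6 to 13.2 CPM) and GSK484 (11.4 to 12.9 CPM), which overlapped. GSK484 was 1.22-fold lower than CON (log2 fold -0.28, interval -0.40 to -0.16) and within counting error of NT (-0.03, interval -0.16 to 0.11). CON was 1.19-fold higher than NT (0.25, interval 0.13 to 0.38). In deposited TPM the same order held, with 7.30 for NT, 7.99 for CON and 7.09 for GSK484. With the trend removed GSK484 was at -0.33 against CON and -0.21 against NT, and the longest CEBPD transcript is 70.0% GC.

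PIK3IP1 (ENSG00000100100) encodes a membrane protein that binds PI3 kinase and inhibits it, and it was called lower in GSK484 than in CON by the rule of size, the only call among the 10. This difference was known from earlier results of these data, and PIK3IP1 reached the minimum of 1 CPM only in CON, where it was high, so the value is a description and the call supports nothing. It had 56 reads for NT, 103 for CON and 42 for GSK484, or 0.79 CPM (interval 0.59 to 1.02), 1.13 (0.92 to 1.37) and 0.54 (0.39 to 0.73). CON was the high and GSK484 the low library, their intervals did not overlap, and that of NT overlapped both. GSK484 was 2.08-fold lower than CON (log2 fold -1.06, interval -1.62 to -0.53). It was below NT by a log2 fold of -0.54 (interval -1.16 to 0.06), within counting error, and both levels were under 1 CPM, so the rule did not compare them. CON was 1.43-fold higher than NT (0.52, interval 0.04 to 1.02). The call ended with the deposited TPM, where the log2 fold was -0.73, at 0.30 in GSK484 and 0.53 in CON, and it held at -1.02 to -1.05 under the other 4 settings.

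The promoter window at the downstream of its 2 RefSeq starts is shown because PIK3IP1 was the only member called. It lies at chr22:31292439-31292738 on GRCh38.p14, minus strand, written along the transcript. Capitals mark TGTTTAC, the reverse complement of the FOXO motif GTAAACA, and the response element arm AGAACA.
PIK3IP1: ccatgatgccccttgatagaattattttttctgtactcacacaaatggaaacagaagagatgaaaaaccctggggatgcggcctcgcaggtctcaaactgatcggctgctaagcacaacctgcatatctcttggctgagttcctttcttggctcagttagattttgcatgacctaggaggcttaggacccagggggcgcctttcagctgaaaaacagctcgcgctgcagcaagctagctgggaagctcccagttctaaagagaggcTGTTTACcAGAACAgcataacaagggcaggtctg
The FOXO motif match begins at base 267 and AGAACA at base 275, both within the first 50 transcribed bases. GTAAACA occurs on either strand in 3.42% of all RefSeq windows. RefSeq windows were found for 8 of the 10 genes, 21 in all, and not for ZBTB16 and CEBPD. The longer response element GNACANNNTGTNC, searched on both strands, was in 0 of these 21 windows and in 0.39% of all windows. AGAACA was in 4 of the 21, belonging to FKBP5, SGK1 and PIK3IP1, and in 14.8% of all windows. GTAAACA was in 3 of the 21, belonging to NR3C1, PIK3IP1 and TSC22D3. These matches are descriptions of the letters in windows near the start.

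**Figure D3:**
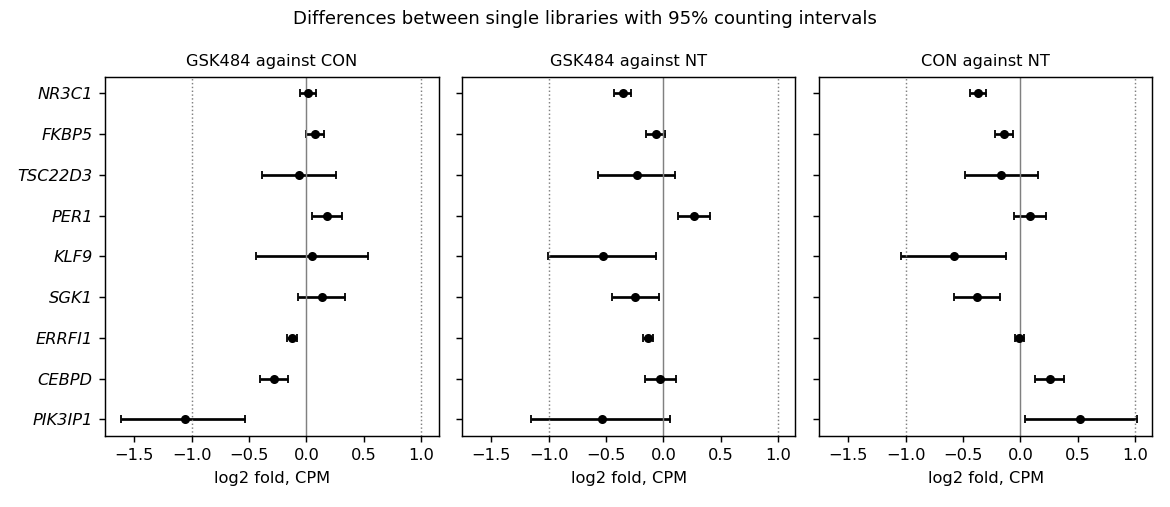
Log2 fold of CPM for the 9 transcripts that reached 1 CPM, in the 3 comparisons of single libraries, with 95% counting intervals and dotted lines at a fold of 2. PIK3IP1 in GSK484 against CON, at -1.06, is the only point beyond a dotted line.

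Set side by side, GSK484 against CON left most of the 10 transcripts close together. Of the 8 genes at 1 CPM or more in either library, 1 was higher (PER1), 3 were lower (ERRFI1, CEBPD and PIK3IP1) and 4 were within counting error (NR3C1, FKBP5, TSC22D3 and SGK1). At this depth such differences are common, since 26.9% of all compared genes were higher and 27.4% lower beyond counting error. By the rule of size 1 member was lower, PIK3IP1, and 0 were higher. Over all genes 0.273% were lower by that rule, and nothing is read from the member count because PIK3IP1 was listed with this difference known. KLF9 was below 1 CPM in both libraries, and ZBTB16 was not detected. The median log2 fold of the 8 measured targets was -0.01, and that of all measured genes was -0.00.

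GSK484 against NT had 1 member higher (PER1) and 4 lower (NR3C1, KLF9, SGK1 and ERRFI1) beyond counting error, with 3 within it, among 8 compared. KLF9 was compared only because it reached 1 CPM in NT, where it was high, so its place below NT here and in CON against NT came with the filter. Over all genes 27.3% were higher and 29.5% lower by the same measure. The 8 measured targets had a median log2 fold of -0.18, where all measured genes had -0.00. That median includes the low transcripts KLF9 (-0.53), which came with the filter, and PIK3IP1 (-0.54), under 1 CPM in both libraries. It is therefore a description only, and nothing is read from its distance to all genes. The median lay between -0.15 and -0.19 under the 5 other settings. None passed the rule of size.

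CON against NT had 2 members higher (CEBPD and PIK3IP1) and 4 lower (NR3C1, FKBP5, KLF9 and SGK1) beyond counting error, with 3 within it, among 9 compared. PIK3IP1 was compared only because it reached 1 CPM in CON, where it was high, so its place above NT came with the filter. Over all genes 35.5% were higher and 29.4% lower. The median of the 8 measured targets was -0.08 and that of all measured genes 0.03. With the deposited TPM the targets had a median of -0.20, where all measured genes moved to -0.08, and with the GC and length trend removed they had 0.07. In the same 2 settings GSK484 against CON had medians of 0.15 and -0.02, with all measured genes at 0.10 and 0.00. All comparisons share libraries, so low values against NT in both GSK484 and CON use the same NT library.

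**Figure D4:**
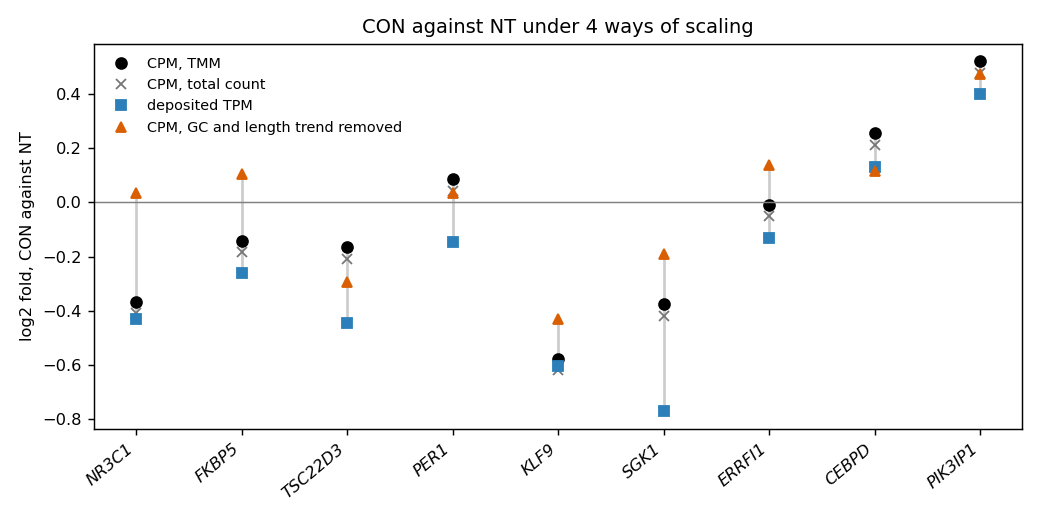
Log2 fold of CON against NT for the 9 transcripts under 4 ways of scaling, joined by a gray line for each gene. NR3C1, FKBP5, PER1 and ERRFI1 lie on both sides of 0 depending on the scaling, KLF9, SGK1 and TSC22D3 stay below 0, and CEBPD and PIK3IP1 stay above 0.

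The wider pathway was read from 8 further gene lists. None of their genes passed the rule of size in GSK484 against CON or in GSK484 against NT. Counts beyond counting error in these lists stand beside 26.9% higher and 27.4% lower over all genes in GSK484 against CON. The chaperone list holds HSP90, HSP70 and the co-chaperones that fold the receptor, and all 18 genes were measured. For GSK484 against CON 9 were higher and 6 lower beyond counting error, and the median was 0.03 on the log2 scale. HSP90AA1, the stress-inducible HSP90 gene, stood apart from the rest of the list, with 3504 CPM for NT, 2136 for CON and 3302 for GSK484 (log2 fold against CON 0.63, reads divided with other genes). Its constitutive relative HSP90AB1, also with divided reads, was at 2837, 2755 and 2872 CPM. CON was the low library for HSP90AA1, and GSK484 against NT was at -0.09. DNAJA1, an HSP70 co-chaperone gene, had a log2 fold of 0.14 and BAG1, a nucleotide exchange factor gene for HSP70, of -0.14 against CON. With the trend removed DNAJA1 was at 0.10 and BAG1 at -0.06, and in deposited TPM they were at 0.21 and -0.01.

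Coregulators, which link the DNA-bound receptor to the transcription machinery, had 19 of 20 genes measured, with GSK484 above CON for 8 and below it for 1 beyond counting error, where 26.9% of all genes were higher and 27.4% lower, and with a median of 0.05. NRIP1, a corepressor of nuclear receptors, was at 37.8 CPM for NT, 17.4 for CON and 28.2 for GSK484. CON against NT was the only comparison in which it was called, with a log2 fold of -1.12 that fell short of the rule once the GC and length trend was removed (-0.69), and its reads were divided. GSK484 was higher than CON by 0.69 and lower than NT by a log2 fold of -0.42. KMT2D, a histone H3 lysine methyltransferase gene with divided reads, was at 0.21 against CON, or 0.50 in deposited TPM. HDAC2, a deacetylase gene, was at 0.19, or 0.31 in deposited TPM and 0.06 with the trend removed.

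Genes of glucocorticoid metabolism and the other steroid receptors were mostly under 1 CPM in every library, with 6 of 15 measured. HSD11B1, which regenerates cortisol from cortisone, had a count of 0 in all libraries, as had PGR, the progesterone receptor gene. HSD11B2, which inactivates cortisol, was present at 4.86 CPM for NT, 5.11 for CON and 4.42 for GSK484 (log2 fold against CON -0.21, interval -0.42 to -0.01, reads divided). NR3C2, the mineralocorticoid receptor gene, was at 0.55, 0.36 and 0.44 CPM, and ESR1, the oestrogen receptor alpha gene, at 1.51, 1.30 and 1.64. AKR1C1, a steroid-reducing enzyme gene with divided reads, had a log2 fold of -0.50 against CON. Within this list of 6 measured genes, 4 were lower than CON beyond counting error and 0 higher, where 27.4% of all genes were lower and 26.9% higher, and the median was -0.21. H6PD, which supplies the cofactor of HSD11B1, was at -0.20 and SRD5A3, a steroid 5-alpha-reductase family gene with divided reads, at -0.31.

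Other glucocorticoid-induced genes had no common direction in GSK484 against CON, and more were lower than higher against NT. Of 35 measured, GSK484 was above CON for 11 and below it for 14 beyond counting error, with a median of -0.01, and 7 were higher and 17 lower against NT, with a median of -0.05. Over all genes the shares against NT were 27.3% higher and 29.5% lower. DUSP1, a phosphatase gene that switches off MAP kinases, was at 22.2 CPM for NT, 21.5 for CON and 15.4 for GSK484. GSK484 was the low library for DUSP1, with a log2 fold of -0.48 against CON (interval -0.58 to -0.37) and of -0.53 against NT. LCN2, an iron-binding defence protein gene, was at -0.63, GLUL, the glutamine synthetase gene, at -0.45 and GADD45B, a stress-response gene, at -0.43 against CON. For LCN2 and GADD45B CON was the high library, with 129 and 15.9 CPM against 94.0 and 12.2 in NT. DUSP1 and GLUL were below both other libraries beyond counting error. LCN2 was also lower in GSK484 than in NT, with a log2 fold of -0.17.

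Inflammatory genes that glucocorticoids repress had 17 of 24 measured, with 6 higher, 4 lower and a median of 0.02 in GSK484 against CON. IL1A, a cytokine gene, was at 110 CPM for NT, 77.8 for CON and 107 for GSK484, with CON low. Its log2 fold was 0.46 against CON and -0.04 against NT. TNFAIP3, an NF-kB feedback inhibitor gene, was at 0.25, the chemokine gene CXCL2 at -0.30 with divided reads, and the cytokine gene IL11 at -0.39 in CPM and 0.41 in deposited TPM.

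PI3 kinase and FOXO genes, the pathway that PIK3IP1 acts on, had 26 of 27 measured, with GSK484 above CON for 7 and below it for 7, with a median of 0.02. PIK3CA, the alpha catalytic subunit gene, was at 18.04 CPM for NT, 9.72 for CON and 15.1 for GSK484 (log2 fold against CON 0.64, or 0.31 with the trend removed, reads divided). PIK3R1, a regulatory subunit gene, was at 12.7, 7.60 and 10.6 CPM (0.48, or 0.31). For both, CON was low and NT high, the reverse of the order of CON and NT for PIK3IP1. PIK3R2, another regulatory subunit gene with divided reads, was low in GSK484, at 12.6, 12.7 and 8.78 CPM (-0.53 against CON and -0.52 against NT). BCL2L11, the gene of the death factor BIM and a FOXO target, was at -0.46 against CON and -0.29 against NT.

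Clock genes, the partners of PER1, had 17 of 20 measured, with GSK484 above CON for 5 and below it for 6, with a median of -0.05. PER2, a period gene that is also glucocorticoid-responsive, was within counting error at -0.05 (interval -0.22 to 0.12). CLOCK was at 21.95 CPM for NT, 11.7 for CON and 16.5 for GSK484 (0.50 against CON, or 0.23 with the trend removed). BMAL1, the partner of CLOCK, was at -0.37, BHLHE41, a clock repressor gene with divided reads, at -0.43, and CIART, another repressor gene, at 0.40. Family relatives of the members spread least, with log2 folds between -0.20 (KLF4) and 0.18 (ZBTB7A) over 16 measured genes, 4 higher and 6 lower, and a median of -0.05. KLF10 and CEBPG were both at -0.15.

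**Figure D5:**
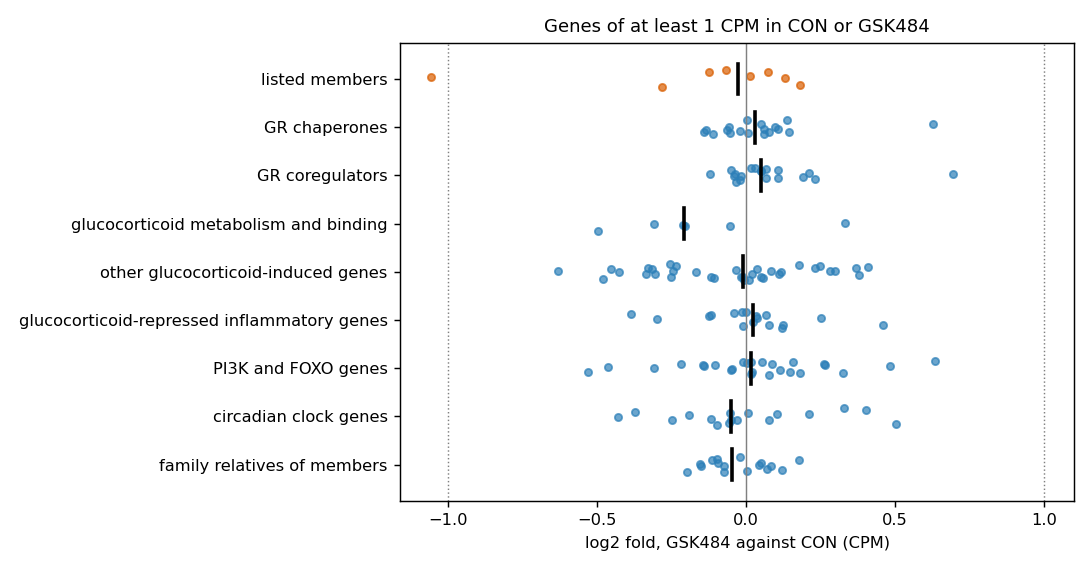
Log2 fold of CPM in GSK484 against CON for the members and the 8 further lists. Each point is a gene of at least 1 CPM in either library, the black bar is the median of the points shown, and dotted lines mark a fold of 2. Points of every list scatter on both sides of 0, and the PIK3IP1 point at -1.06 is the only one past a dotted line.

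The genes nearest to NR3C1 in their pattern over the 3 libraries, among 8529 genes of at least 10 CPM in each, were LANCL1, TNKS, GALNT7, TRAPPC13 and EHF. Likeness was the Euclidean distance of centred log2 CPM, which was 0.01 to 0.02 for these 5, and 210 genes lay within 0.1. LANCL1 was at 31.8 CPM for NT, 24.4 for CON and 24.9 for GSK484. For PIK3IP1, the member with the widest range, the nearest gene was RARRES1, a retinoic acid-induced gene, at a distance of 0.17 with 63.7 CPM for NT, 81.4 for CON and 45.9 for GSK484. MT-ND1, AGR2, an unnamed gene (ENSG00000238035) and TRIM31 followed at 0.28 to 0.29, and 0 genes lay within 0.1. PIK3IP1 itself was far under the 10 CPM minimum, at 0.54 to 1.13 CPM. Its 42 to 103 reads per library were thus set against better counted genes. With 3 points per gene, such likeness describes the order and size of differences between libraries only.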

How the data were processed

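RNA was measured in 3 libraries (NT, CON, GSK484), 1 per group, made with a stranded total RNA kit per the labels' protocols. The authors deposited 1 gene table per library with expected counts, TPM, FPKM (not used) and effective lengths, per the file headers. RSEM and hg19 were used, per the submitters' processing notes. Its version, the aligner, the annotation and the strand setting were not given in the sources used here. The deposited expected counts are not normalized. The deposited TPM values are scaled to the same total per library and keep no depth.

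Counts were scaled with TMM factors (edgeR 4.0.16, R 4.3.3), at 1.01 for NT, 0.98 for CON and 1.01 for GSK484. Log2 folds used a prior count of 0.5, and intervals used rounded counts. TPM folds used a pseudocount of 0.05, which understates folds of low genes. The trend was fitted with natural splines (patsy 1.0.2) of 4 degrees of freedom each to the 8369 protein-coding genes that reached 10 CPM in each library, with GC content from GENCODE 29 transcripts, known for 97.2% of measured genes. DESeq2 1.42.0 supplied size factors only. With 1 library per group, no test was made. Reads are not molecules, so intervals cover counting error only.

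Symbols came from a gene name table and GENCODE 29. Promoter windows are RefSeq's on GRCh38.p14, another build than that of the tables, and no coordinates were transferred. The members and lists were chosen with earlier results of these data known. Named genes were all members and, per list, up to 4 genes with the largest absolute fold in GSK484 against CON beyond counting error, plus any called. HSP90AB1, HSD11B1, PGR, NR3C2, ESR1 and PER2 were added after their values were seen. Of the list entries, 3 were not matched and were not analysed here. Some list genes are not reported here.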

Additional observations from a re-analysis of the deposited data

How the results depend on the processing

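With 1 library per group, no replicate was left out. No paired analysis was possible because each group holds 1 library. DESeq2 size factors and a prior count of 2 left every member's log2 fold inside its counting interval, and total-count scaling moved 1 of 27 such values outside, ERRFI1 in CON against NT, from -0.01 to -0.05. The deposited TPM and the removal of the GC and length trend each moved 11 of 27 outside. The cause was not tested.

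With TPM no member was called, and PIK3IP1 was at -0.73 in GSK484 against CON. Counts of called genes over the whole table were as follows. In GSK484 against CON, 26 higher became 54 with TPM, 538 with no minimum CPM and 1 with a minimum of 10, and 36 lower became 550 and 3 with those minimums. In GSK484 against NT, 36 higher became 23 with the trend removed, 486 with no minimum and 3 with a minimum of 10, and 37 lower became 56 with TPM, 568 and 6. In CON against NT, 44 higher became 21 with the trend removed, 535 and 5, and 178 lower became 50, 785 and 91. The median of the measured targets in CON against NT was -0.20 with TPM in place of -0.08. Depth limits KLF9, PIK3IP1 and TSC22D3, with 42 to 179 reads per library.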
